A study of Mus musculus with 6 samples.

Results

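The miR-30 family was examined in mouse liver as 9 mature miRNAs chosen by name, among 1546 mature miRNAs listed for each library. The 9 members are the 5p arms mmu-miR-30a-5p, mmu-miR-30b-5p, mmu-miR-30c-5p, mmu-miR-30d-5p and mmu-miR-30e-5p and the 3p arms mmu-miR-30a-3p, mmu-miR-30c-2-3p, mmu-miR-30d-3p and mmu-miR-30e-3p. All 9 were listed and all 9 passed the filter on low values, that is, averaged 1 CPM or more over the 6 libraries. CPM gives the reads of a miRNA relative to the reads on all listed miRNAs of that library, scaled to the same total in each. Livers of male C57BL/6 mice on a normal diet (NC, n = 3) were compared with livers of MAFLD C57BL/6 mice on a high-fat diet (MAFLD, n = 3). The mice were 8 weeks old when the diets began, stayed on them for 16 weeks and were fasted for 6 hours before the livers were taken. The study kept 6 mice per diet, and which of them gave the 3 libraries of each group is not given in the sources used here. Nor do they say that each library came from a separate mouse, so a liver is used here as the name of 1 library. MAFLD, metabolic dysfunction-associated fatty liver disease, was modelled by the diet alone, and the labels give no disease stage for a single animal.

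A miRNA gene is transcribed as a hairpin, from which Drosha and Dicer cut a short duplex. The guide strand stays in an Argonaute protein and pairs with messenger RNAs through its seed, the bases 2 to 8, while most of the passenger strand is degraded. In the miR-30 family the 5p arms are the usual guides. They are known for restraining genes of the epithelial to mesenchymal transition, for repression of the autophagy gene Becn1 by miR-30a, and for repression of Mttp, which loads lipid onto lipoproteins in hepatocytes, by miR-30c.

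Of the 9 members, 6 had a sequence in the RefSeq miRNA table (GRCm38.p6), which had no entry for miR-30b-5p, miR-30d-5p or miR-30d-3p. The printed sequences are those whose arms and near copies are compared, from 5′ to 3′ with the seed in capitals, and miR-30c-1-3p is added as the other 3p arm of miR-30c.
miR-30a-5p: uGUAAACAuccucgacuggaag
miR-30e-5p: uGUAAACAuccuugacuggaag
miR-30c-5p: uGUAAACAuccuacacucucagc
miR-30a-3p: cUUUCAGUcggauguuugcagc
miR-30e-3p: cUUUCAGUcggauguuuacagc
miR-30c-2-3p: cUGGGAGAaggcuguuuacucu
miR-30c-1-3p: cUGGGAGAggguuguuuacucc

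The 3 guides with a sequence shared the seed GUAAACA, and miR-384-5p was the only other of the 1679 RefSeq mature mouse miRNAs with it. The guides miR-30b-5p and miR-30d-5p are missing from that table, so their seeds were not compared. Counted from the 5′ end, miR-30a-5p and miR-30e-5p differed by C13U alone. Their 3p arms shared another seed, UUUCAGU, and miR-30a-3p and miR-30e-3p differed by G18A alone. MiR-30c-5p had 5 differences from miR-30a-5p over 22 bases, the first at base 13. Both 3p arms of miR-30c had the seed UGGGAGA, also found in miR-6958-5p, and differed from each other by G9A, U12C and C22U from miR-30c-1-3p to miR-30c-2-3p.

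MiR-30c-5p is cut from a pair of hairpins, shown here because its reads cannot be assigned to either of them, with the mature arms in capitals.
Mir30c-1: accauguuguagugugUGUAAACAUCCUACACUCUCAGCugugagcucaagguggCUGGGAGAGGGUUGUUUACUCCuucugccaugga
Mir30c-2: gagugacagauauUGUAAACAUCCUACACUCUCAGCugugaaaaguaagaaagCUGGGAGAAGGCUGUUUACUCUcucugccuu

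In GRCm38 the 6 Mir30 genes that encode the members and their other arms lie in 3 clusters. Mir30a (chr1:23272269-23272339) and Mir30c-2 (chr1:23291701-23291784) are on the plus strand, 19361 bases apart, Mir30c-2 in an exon of the lincRNA Gm27028 and Mir30a in no other annotated gene. Mir30c-1 (chr4:120769534-120769622) and Mir30e (chr4:120772606-120772697) are on the minus strand in an intron of Nfyc, 2983 bases apart, and a further miRNA gene, Mir30f, is annotated on the opposite strand over Mir30e. Mir30b (chr15:68337415-68337510) and Mir30d (chr15:68341208-68341289) are on the minus strand, 3697 bases apart, in exons of the non-coding genes Gm26621 (Mir30b) and Gm20732 and Gm37296 (Mir30d).

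The libraries held between 1336935 and 4685712 reads on miRNAs, of which the 9 members took between 44588 and 193744. The most abundant miRNA, miR-148a-3p, took between 48.5% and 71.4% of the reads in NC livers and between 46.8% and 56.7% in MAFLD livers, and the CPM of every other miRNA depends on that share. The 4 hepatocyte markers (both arms of miR-122, miR-192-5p and miR-194-5p) were detected in every group. They summed to 102722, 124015 and 167007 CPM in NC livers and to 176512, 147868 and 157180 CPM in MAFLD livers. NC replicates 1 and 2 lay below every MAFLD liver, and NC replicate 3 lay within the MAFLD range. The 5 neuronal markers summed to 474 and 773 CPM in NC replicates 1 and 2, against 56.1 CPM in NC replicate 3 and from 48.9 to 73.6 CPM in MAFLD livers. The 2 endothelial markers, the arms of miR-126a, summed to between 4710 and 6587 CPM in NC livers and between 7659 and 10155 CPM in MAFLD livers, without overlap. The muscle, erythroid, leukocyte, mesenchymal and pancreas lists overlapped between the groups. The part of these cell types in the results was not tested, and in whole liver a change in the number of cells of a type cannot be told apart from a change in RNA per cell.

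MiR-30a-5p was by far the main member. It stood at 17782, 21785 and 34564 CPM in the livers of NC mice, against 37170, 30155 and 34127 CPM in those of MAFLD mice, position 5 among all miRNAs by mean in both groups. MiR-30d-5p followed, 6.82-fold lower in NC and 6.85-fold lower in MAFLD livers, then miR-30c-5p, miR-30e-5p and miR-30b-5p. This order of the 5 guides was the same in all 6 libraries. MiR-30c-5p and miR-30e-5p, and miR-30e-5p and miR-30b-5p, had overlapping ranges among the NC livers. Among the passengers, miR-30a-3p was the most abundant and miR-30d-3p the scarcest, with between 7 and 75 reads per library. MiR-30b-5p and miR-30a-3p changed places between libraries, as did miR-30c-2-3p and miR-30e-3p, so neither pair could be ordered. A mature miRNA is read whole, and those with a sequence were 22 or 23 bases long, so CPM needed no scaling by length. Adapters join some ends better than others, which was not corrected. MiR-384-5p, a brain miRNA with the miR-30 seed, was read 4 times in NC replicate 1 and 0 times in the other libraries, which allows levels of up to between 0.640 and 2.24 CPM there (3 reads).

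**Figure D1:**
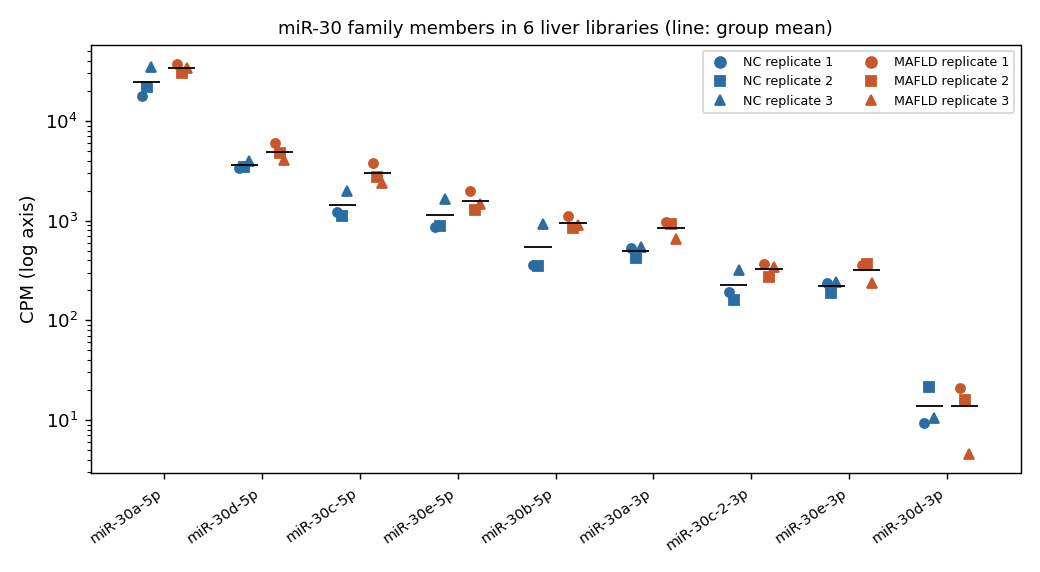
CPM (log axis) of the 9 members in the 3 NC and 3 MAFLD libraries, 1 point per library, with a line at each group mean. The NC points of miR-30a-3p, miR-30c-5p and miR-30d-5p all lie below the MAFLD points, and NC replicate 3 lies among the MAFLD points for miR-30a-5p and miR-30b-5p.

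The comparison of MAFLD with NC livers asked which miRNAs of the liver differ after the high-fat diet. Of the 9 members, 8 had higher means on the log2 scale in MAFLD livers, as had 357 of all 501 miRNAs tested. Of the 8, miR-30d-5p turned to lower under median-ratio scaling and with edgeR and DESeq2 on recovered reads. The median log2 fold change of the 9 was 0.53, against 0.43 over all 501 miRNAs tested. It lay below the 0.56 of the 238 miRNAs that averaged 10 CPM or more, all 9 members among them. Under median-ratio scaling the medians of the 9 and of all 501 were 0.059 and 0.044. No member had an adjusted p under 0.05 from limma (0 of 9, where 0.2% of all tested miRNAs did), and 0 of 9 passed with edgeR and with DESeq2 on recovered reads, where 0.2% and 5.59% of all tested miRNAs did. At an unadjusted p under 0.05 and at least 1.5-fold, 3 of 9 were higher, namely miR-30c-5p, miR-30b-5p and miR-30a-3p, and 0 were lower. In this direction 13.4% of all tested miRNAs passed, and 18% passed in either direction. When only the 238 more abundant miRNAs were fitted, 21.8% were higher by this rule, and the same 3 members passed. The groups did not overlap for 3 of 9 members, miR-30c-5p, miR-30a-3p and miR-30d-5p, all higher in MAFLD livers, as were 15.2% of all tested miRNAs.

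NC replicate 3 decided the adjusted calls. Without it, 6 of 9 members had an adjusted p under 0.05 (miR-30a-5p, miR-30a-3p, miR-30b-5p, miR-30c-5p, miR-30c-2-3p and miR-30e-5p), while 22.8% of all tested miRNAs did, and the median log2 fold change of the 9 was 0.81, against 0.67 over all. In NC replicate 3 miR-148a-3p took 48.5% of the reads, against 71.4% and 63.3% in NC replicates 1 and 2. When that library was left out before median-ratio scaling, 0 of 9 members passed the adjusted p, while 36 of the 501 miRNAs did.

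MiR-30c-5p had the highest log2 fold change of the 9 members over all 6 libraries, while without NC replicate 3 that of miR-30b-5p was higher (1.42 against 1.33). It was at 1219, 1114 and 1982 CPM in the livers of NC mice, against 3827, 2747 and 2390 CPM in those of MAFLD mice. Every MAFLD liver was above every NC liver, and the means were 1438 ± 474 CPM (SD, n = 3) and 2988 ± 748 CPM (SD, n = 3). The log2 fold change was 1.07 (standard error 0.33, 95% interval 0.37 to 1.77), with an adjusted p of 0.152 from limma (0.00514 before adjustment), position 16 of the 501 miRNAs by p. Under median-ratio scaling the log2 fold change was 0.61 (adjusted p = 0.219 from limma), while the median of all miRNAs moved from 0.43 to 0.044. With CPM recomputed without miR-148a-3p the log2 fold change was 0.73 (adjusted p = 0.0762 from limma), while the median of all miRNAs was 0.16. MiR-30c-5p passed the unadjusted p and 1.5-fold in each of these fits and in all others that were run.

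MiR-30b-5p, the scarcest guide, was at 355, 350 and 931 CPM in the livers of NC mice, against 1114, 849 and 903 CPM in those of MAFLD mice. NC replicate 3 lay within the MAFLD range, while NC replicates 1 and 2 were well below it. The log2 fold change was 0.96 (standard error 0.40, 95% interval 0.12 to 1.80, adjusted p = 0.223 from limma). Under median-ratio scaling it was 0.49 and no longer at 1.5-fold.

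MiR-30d-5p, encoded beside miR-30b, was at 3384, 3478 and 4007 CPM in the livers of NC mice, against 6042, 4735 and 4036 CPM in those of MAFLD mice. The groups did not overlap, although MAFLD replicate 3 exceeded NC replicate 3 by little. Its log2 fold change was 0.43 (95% interval −0.17 to 1.03, adjusted p = 0.411 from limma), the same as the median of all miRNAs, and it was −0.037 under median-ratio scaling. MiR-30a-5p had a log2 fold change of 0.50 (95% interval −0.080 to 1.09, adjusted p = 0.331 from limma), which was 0.038 under median-ratio scaling and lay between 0.30 and 0.78 when single libraries were left out. MiR-30e-5p was at 856, 887 and 1638 CPM in the livers of NC mice, against 1967, 1280 and 1475 CPM in those of MAFLD mice. Its groups overlapped through NC replicate 3, as did those of miR-30a-5p, and its log2 fold change was 0.53 (95% interval −0.21 to 1.26, adjusted p = 0.411 from limma), or 0.059 under median-ratio scaling. These intervals include 0 and also differences beyond 2-fold, so they do not show that the levels were alike.

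Of the passenger strands, miR-30a-3p was at 533, 426 and 543 CPM in the livers of NC mice, against 971, 928 and 654 CPM in those of MAFLD mice, without overlap. The log2 fold change was 0.75 (standard error 0.33, 95% interval 0.046 to 1.45, adjusted p = 0.247 from limma), and 0.28 under median-ratio scaling, where its unadjusted p was 0.347 from limma and its adjusted p 0.660. MiR-30e-3p, which has the same seed, was at 235, 189 and 243 CPM in the livers of NC mice, against 358, 363 and 238 CPM in those of MAFLD mice. MAFLD replicate 3 fell within its NC range, and the log2 fold change was 0.50 (95% interval −0.26 to 1.27, adjusted p = 0.446 from limma), or 0.039 under median-ratio scaling. MiR-30c-2-3p was at 193, 160 and 319 CPM in the livers of NC mice, against 367, 275 and 345 CPM in those of MAFLD mice, which amounts to 0.60 on the log2 scale (95% interval −0.20 to 1.40, adjusted p = 0.398 from limma), or 0.14 under median-ratio scaling. NC replicate 3 was again the high NC liver and lay within the MAFLD range.

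MiR-30d-3p was the member with a negative difference, −0.13 on the log2 scale (95% interval −1.36 to 1.10, adjusted p = 0.931 from limma). It was at 9.41, 21.7 and 10.5 CPM in the livers of NC mice, against 21.0, 16.01 and 4.56 CPM in those of MAFLD mice. Counting error was large here, as the 95% Wilson interval of MAFLD replicate 3 ran from 2.21 to 9.42 CPM on 7 reads. Counting error amounted on average to 21.4% of the level in NC and 20.9% in MAFLD livers, and the standard deviation between livers was larger still, 49.0% and 60.8% of the mean. For the guides counting error was small against the spread between livers. For miR-30a-5p it was 0.492% of the level on average in NC livers, where the standard deviation between livers was 35.5% of the mean.

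**Figure D2:**
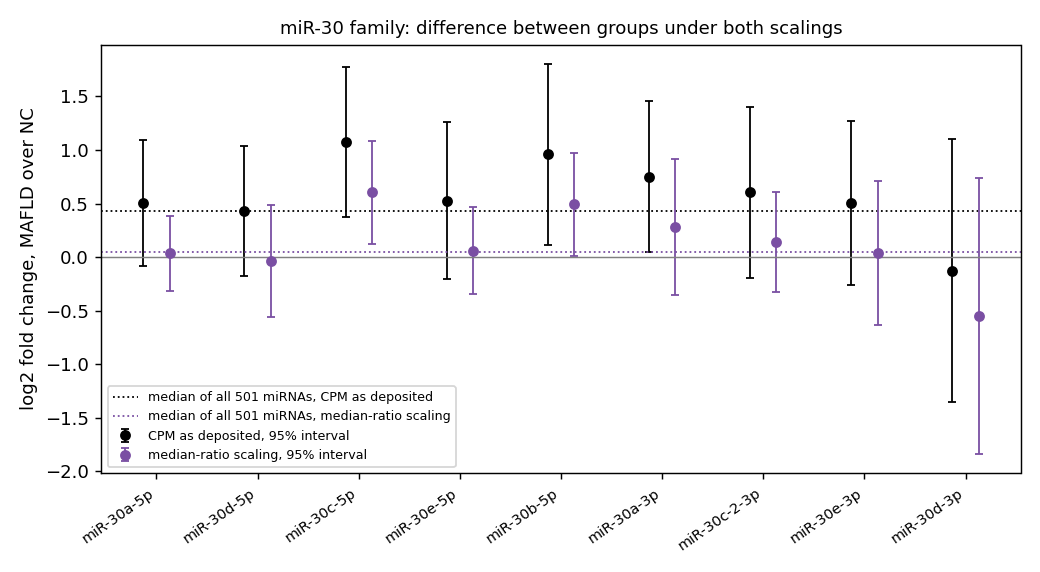
Log2 fold change of MAFLD over NC livers for each member, in order of mean level, with the 95% interval from limma, from CPM as deposited (black) and after median-ratio scaling (purple); dotted lines mark the median of all 501 miRNAs under each scaling. The black points of miR-30c-5p (1.07) and miR-30b-5p (0.96) lie highest above their dotted line (0.43), and most others lie close to it.

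The summed guides were set against all miRNA reads and against the reads other than miR-148a-3p. They made up 2.36%, 2.76% and 4.31% of the miRNA reads in NC livers and 5.01%, 3.98% and 4.29% in MAFLD livers. NC replicate 3 lay inside the MAFLD range. Among the reads other than miR-148a-3p they made up 8.24%, 7.53% and 8.38% in NC livers and 9.41%, 9.19% and 8.88% in MAFLD livers, and there the groups did not overlap. The means were 8.05 ± 0.454% (SD, n = 3) and 9.16 ± 0.271% (SD, n = 3). With CPM recomputed without miR-148a-3p, the median log2 fold change was 0.18 over the 9 members and 0.16 over all 500 miRNAs. The share of all miRNAs without overlap on that scale was not computed.

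Shares within the family do not depend on the scaling between libraries, and they were compared with two-sided exact permutation tests, which cannot go below p = 0.1 with 3 livers against 3. MiR-30c-5p took 5.17%, 4.03% and 4.60% of the 5p reads of the family in NC livers and 7.64%, 6.91% and 5.57% in MAFLD livers. Its share was higher in every MAFLD liver than in every NC liver, by 2.10 percentage points on average (exact permutation test, p = 0.1). MiR-30b-5p took 1.64 ± 0.461% (SD, n = 3) in NC livers and 2.15 ± 0.0620% (SD, n = 3) in MAFLD livers, with overlap (exact permutation test, p = 0.3). MiR-30a-5p took between 74.2% and 80.2%, miR-30d-5p between 9.29% and 14.3%, and miR-30e-5p between 3.21% and 3.92% over the 6 livers, and these 3 overlapped between the groups (exact permutation tests, p = 0.5, p = 0.6 and p = 1.0). Measured against miR-30d-5p in the same library, miR-30c-5p was 0.64 higher in MAFLD livers on the log2 scale, again without overlap (exact permutation test, p = 0.1).

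**Figure D3:**
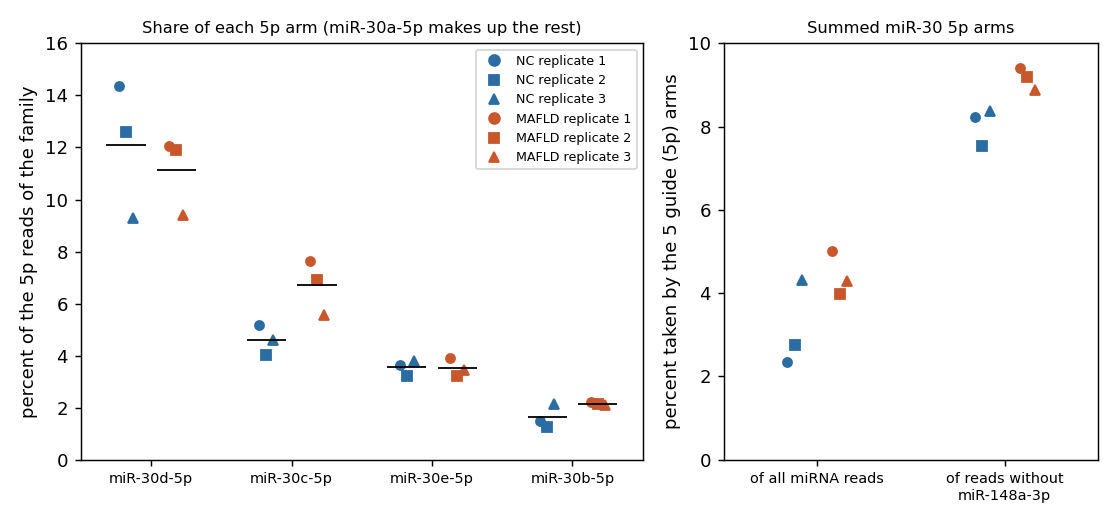
Left, percent of the 5p reads of the family taken by 4 of the guides in each library, with lines at the group means; right, percent of all miRNA reads, and of reads other than miR-148a-3p, taken by the 5 guides together. The MAFLD points of miR-30c-5p lie above the NC points, and the summed guides separate the groups only where miR-148a-3p is left out.

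The ratio of the 5p to the 3p arm was compared over the 121 hairpins with both arms at a mean of at least 1 CPM, of which 6 belong to the family. The miR-30b and miR-30c-1 ratios use the arms miR-30b-3p and miR-30c-1-3p, which are not among the 9 members, and both miR-30c ratios use the same 5p reads. No hairpin had an adjusted p under 0.05 from limma (0 of 6 in the family and 0% of all), while 19 of 121 had an unadjusted p under 0.05. At an unadjusted p under 0.05 and 1.5-fold, 2 of 6 miR-30 ratios passed, against 15.7% of all hairpins, and these 2 also did not overlap between the groups, as for 20.7% of all hairpins. They were miR-30c-1 and miR-30b, positions 1 and 2 of the 121 by p.

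The miR-30b hairpin gave 34.8, 27.5 and 33.6 reads of the 5p arm per read of the 3p arm in NC livers and 78.1, 71.1 and 72.9 in MAFLD livers. The ratio was thus higher in each MAFLD liver, NC replicate 3 included in the lower group. The means were 32.0 ± 3.94 (SD, n = 3) and 74.0 ± 3.67 (SD, n = 3), and the log2 difference was 1.20 (standard error 0.29, 95% interval 0.53 to 1.88), with an adjusted p of 0.118 from limma. The smallest p that 3 livers against 3 allow, 0.1, was reached in the exact permutation test. MiR-30b-3p itself was read between 19 and 56 times per library and stood at 10.2, 12.7 and 27.7 CPM in the livers of NC mice, against 14.3, 11.95 and 12.4 CPM in those of MAFLD mice. Its log2 fold change was −0.25 (95% interval −1.30 to 0.81, adjusted p = 0.810 from limma). Counting error of this 3p arm averaged 19.5% of its level in NC and 17.5% in MAFLD livers. The standard deviations of the ratio are smaller than that relative to its means, so they understate its uncertainty.

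For the miR-30c-1 hairpin the ratio was 259, 350 and 442 in NC livers and 2040, 1839 and 1223 in MAFLD livers. The log2 difference was 1.95 (standard error 0.35, 95% interval 1.14 to 2.76, adjusted p = 0.0677 from limma; exact permutation test, p = 0.1). MiR-30c-1-3p was read 12, 5 and 6 times in NC livers and 5, 7 and 3 times in MAFLD livers, so counting error is large. Reads of its 5p partner cannot be assigned to Mir30c-1 or Mir30c-2, so this ratio may say little about the Mir30c-1 hairpin itself. The 3p arm stood at 4.71, 3.19 and 4.49 CPM in the livers of NC mice, against 1.88, 1.49 and 1.95 CPM in those of MAFLD mice, with no overlap and a difference of −0.88 on the log2 scale (95% interval −2.01 to 0.26, adjusted p = 0.385 from limma). Every one of the Wilson intervals of the MAFLD livers overlapped with those of the NC livers.

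The other 4 ratios did not pass. For miR-30c-2, the other source of miR-30c-5p, the ratio was 6.32, 6.96 and 6.21 in NC livers and 10.4, 10.002 and 6.93 in MAFLD livers. Only MAFLD replicate 3 lay among the NC values (log2 difference 0.47, 95% interval −0.27 to 1.21; exact permutation test, p = 0.2). The miR-30a ratio was 49.4 ± 15.2 (SD, n = 3) in NC and 41.0 ± 10.1 (SD, n = 3) in MAFLD livers, a log2 difference of −0.25 (95% interval −1.10 to 0.61). The miR-30e ratio was 5.02 ± 1.57 (SD, n = 3) in NC and 5.07 ± 1.39 (SD, n = 3) in MAFLD livers, a log2 difference of 0.021 (95% interval −0.88 to 0.92). The miR-30d ratio ranged from 161 to 885 on few reads of its 3p arm (log2 difference 0.56, 95% interval −0.62 to 1.73).

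**Figure D4:**
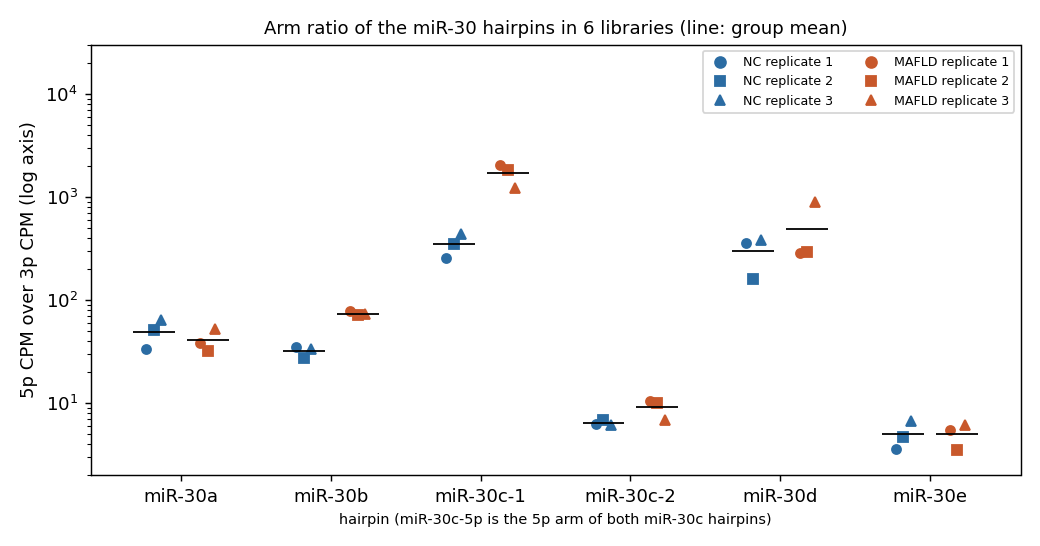
5p CPM over 3p CPM (log axis) of the 6 miR-30 hairpins, 1 point per library, with lines at the group means. The groups are apart for miR-30b (27.5 to 34.8 in NC, 71.1 to 78.1 in MAFLD) and miR-30c-1 (259 to 442 and 1223 to 2040) and overlap for the others.

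A list of 12 other miRNAs known as epithelial or as repressors of matrix genes (miR-29, miR-26, miR-101 and miR-200 families) was set beside the family. All 12 were tested, and 0 had an adjusted p under 0.05 from limma. At an unadjusted p under 0.05 and 1.5-fold 4 of 12 were higher (miR-26b-5p, miR-29a-3p, miR-101a-3p and miR-101b-3p) and 0 were lower, beside the 13.4% of all miRNAs that were higher. None of the 4 was from the epithelial miR-200 family. The log2 fold changes there were 0.070 (miR-200a-3p), 0.090 (miR-200b-3p), 0.51 (miR-200c-3p), −0.14 (miR-141-3p) and −0.29 (miR-429-3p). The median log2 fold change of the 12 was 0.56. The list is given on CPM as deposited only, and under median-ratio scaling 5.39% of all miRNAs were higher by this rule. MiR-26b-5p, the largest, was at 2862 ± 1705 CPM (SD, n = 3) with NC and 5345 ± 1429 CPM (SD, n = 3) with MAFLD, or 1.03 higher on the log2 scale (SE 0.38, limma adjusted p = 0.208).

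Among the 228 miRNAs outside the family with a mean of at least 10 CPM, those whose log2(CPM + 1) followed the summed guides most closely over the 6 libraries were miR-24-3p (Pearson r = 0.998), miR-199a-3p and miR-199b-3p (both r = 0.997), miR-652-3p (r = 0.996) and miR-199a-5p (r = 0.994). MiR-148a-3p had the lowest value (r = −0.972), at position 228 of 228. All libraries are scaled to the same total, of which miR-148a-3p is the largest part, so these values are a description only.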

How the data were processed

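Small RNA libraries of 3 NC and 3 MAFLD livers were analysed from the CPM values deposited by the authors, which are scaled to the reads on all 1546 listed miRNAs of a library. The submitters' processing notes name FastQC, cutadapt, Bowtie and edgeR and the build GRCm38, and versions, roles and the mismatches allowed are not given in the sources used here.

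Reads were recovered by dividing each value by the smallest above 0 in its library, and 100% came within 0.02 of a whole number. Wilson intervals (95%) cover counting error only. Log2(CPM + 1) was fitted with limma 3.58.1 (eBayes with a trend, R 4.3.3) over the 501 miRNAs that averaged 1 CPM or more, and 5p to 3p log2 ratios over 121 hairpins. P-values were two-sided and adjusted by the Benjamini-Hochberg method over all features of a fit, with the threshold at an adjusted p of 0.05. The looser rule, an unadjusted p under 0.05 with 1.5-fold, was added because the study's statistics section names no adjustment. Single ratios and shares were compared with exact permutation tests (scipy 1.17.1). The pseudocount of 1 CPM draws the folds of scarce miRNAs towards 0. Count tests on recovered reads used edgeR 4.0.16 (quasi-likelihood) and DESeq2 1.42.0. Other pseudocounts and filters, other scalings, limma without the trend, the replicate block and leaving out each library were tried as alternatives. The scripts were tested on simulated data.

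The miRNAs named are the 9 members, the other arms of their hairpins, miRNAs with the same seed, the 5 most alike over the libraries, the list of 12 with the largest and the looser calls named, the marker lists and miR-148a-3p. Members and lists were chosen with earlier results of these data known. Replicate numbers 1 to 3 come from the labels. Same-numbered samples are of different diets and hence different mice, and nothing says that a number marks a shared batch. The growth and treatment notes of the labels describe HepG2 cells, a human hepatoma line, whereas each sample is labelled as mouse liver and was treated as such. Nothing states that the libraries of a group came from separate mice, so p-values measure only the spread between these libraries, which may be technical.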

Additional observations from a re-analysis of the deposited data

How the results depend on the processing

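Each member was refitted under 17 alternatives, the counts of members under 18 and the count of arm ratios under 11. Median-ratio scaling on 5 libraries, leaving NC replicate 3 aside, was chosen after seeing the data. The number of members past the adjusted p was 0 under 17 of the 18 and ranged from 0 to 6 when 1 library was left out, with 6 without NC replicate 3. The 3 members past the unadjusted p and 1.5-fold became 1, miR-30c-5p, under median-ratio scaling and without the trend in limma (14.2% and 14.8% of all miRNAs). The same held with edgeR and with DESeq2 (15.2% and 14.6% of all). At 2-fold 1 member passed, and the share of all miRNAs at 2-fold was not computed. The number at 1.5-fold ranged from 1 to 6 when 1 library was left out. It was 1 without NC replicate 2 or MAFLD replicate 1 (7.98% and 8.18% of all) and 6 without NC replicate 3 (34.3% of all). The 0 arm ratios past the adjusted p became 2 at a pseudocount of 5 CPM (miR-30b and miR-30c-1, 3.31% of all hairpins), 1 at a mean of at least 10 CPM (miR-30b, 2.13% of all, while miR-30c-1 was not tested) and 1 with the replicate block (miR-30c-1, 2.48% of all), and lay between 0 and 1 over the fits that leave out 1 library (miR-30c-1 without NC replicate 3, 8.26% of all). The log2 difference stayed above 0 in all fits that tested them, from 1.09 to 1.27 for miR-30b and from 1.498 to 2.24 for miR-30c-1, with adjusted p from 0.0173 to 0.359 and from 0.0424 to 0.359. The cause of these changes was not tested.

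MiR-30d-5p turned negative under median-ratio scaling (−0.037), in edgeR (−0.010), in DESeq2 (−0.051) and in the fit on 5 libraries (−0.20), where miR-30e-3p also reversed to −0.13. Over the fits that leave out 1 library, miR-30d-3p lay between −0.52 and 0.47 (0.22 without NC replicate 2, 0.47 without MAFLD replicate 3), and the miR-30e arm ratio between −0.19 and 0.26, with −0.0065 without NC replicate 2, −0.057 without MAFLD replicate 1 and −0.14 without MAFLD replicate 3. The share of miR-30d-5p ran from −2.35 to 0.177 percentage points and that of miR-30e-5p from −0.218 to 0.134, with 0.0211, 0.107 and 0.0256 without NC replicate 1, NC replicate 3 and MAFLD replicate 3. As log2 ratios to miR-30d-5p, miR-30a-5p (0.074) and miR-30e-5p (0.096) changed sign. The split of all miRNAs at the unadjusted p and 1.5-fold, 67 up and 23 down, was 27 up and 44 down after median-ratio scaling.

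With the replicate block, 0 members passed the adjusted p (0.998% of all miRNAs) and 2 passed the unadjusted p and 1.5-fold (18.4% of all), and the miR-30c-1 arm ratio had an adjusted p of 0.0476 (log2 difference 1.95). Deviations of same-numbered livers had correlations from −0.046 to 0.012 and the mice differed, so the number was not taken as a pairing. MiR-30d-3p, miR-30b-3p and miR-30c-1-3p rest on 3 to 75 reads a library.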

Other observations

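Some ratios between close copies were looked at after the values were seen and were not tested. MiR-30e-5p, 1 base from miR-30a-5p, stood at between 4.07% and 5.29% of the level of miR-30a-5p in all 6 livers, with overlapping groups. On the 3p side, also 1 base apart, miR-30e-3p stood at 44.0%, 44.4% and 44.8% of miR-30a-3p in NC livers and at 36.8%, 39.2% and 36.4% in MAFLD livers, without overlap. The spread of this ratio among the NC livers was 0.381 percentage points (SD, n = 3), while the CPM of each arm varied by 13% of its mean. Counting error averaged 3.43% of the level of miR-30a-3p and 5.15% of that of miR-30e-3p in NC livers. It alone exceeds the spread of the ratio, so the closeness of the NC values is not informative. In MAFLD livers counting error averaged 2.21% and 3.63%. Whether reads of the more abundant copy were counted on the name of the other was not tested.

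MiR-30c-1-3p and miR-30c-2-3p mark the separate hairpins of miR-30c. MiR-30c-1-3p stood at 2.44%, 1.99% and 1.41% of miR-30c-2-3p in NC livers and at 0.511%, 0.544% and 0.567% in MAFLD livers, without overlap, on 3 to 12 reads of miR-30c-1-3p per library. MiR-30b-5p, encoded beside miR-30d, stood at 10.5%, 10.1% and 23.2% of miR-30d-5p in NC livers and at 18.4%, 17.9% and 22.4% in MAFLD livers, and there NC replicate 3 was the highest of all 6.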
